A study of Mus musculus with 11 samples.

Results

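The genes described here are the translation factors and aminoacyl-tRNA synthetases, 92 of the 19938 genes that had a probe set with a single symbol in the platform annotation. They were chosen by name, as the eukaryotic initiation factors (eIF1 to eIF6, without the eIF2 kinases), the elongation factors, and the enzymes that load tRNAs with amino acids. They comprise 58 translation factor genes, 18 genes of cytosolic synthetases and 16 of mitochondrial ones. Where a gene had several probe sets, the one brightest on average across the 11 arrays was read.

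Total RNA of whole pancreas from wild-type C57Bl6J mice was measured on Affymetrix arrays, 1 per sample. The 6 caerulein samples came from mice given 9 hourly intraperitoneal injections of caerulein, a peptide that overstimulates the enzyme-secreting acinar cells and causes experimental acute pancreatitis. The series text gives the dose as 50 mg/kg, a unit not checked here. The 5 NaCl samples came from mice injected with sodium chloride, although the series text counts 4 control mice. The sources used here do not give the age of the mice or how long after the last injection the tissue was taken. Nothing states outright that each sample is a separate animal, so a p-value speaks only for the spread among these arrays.

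Protein synthesis starts when eIF2 brings the initiator tRNA to the small ribosomal subunit and eIF4 factors recruit the capped mRNA, with eIF3 as the scaffold between them. The subunits then join, and elongation factors deliver each loaded tRNA and move the ribosome along. The synthetases supply the loaded tRNAs, in the cytosol from one gene set and in mitochondria largely from another. Acinar cells are among the most active protein-making cells of the body. When eIF2 is phosphorylated under stress, initiation slows while translation of the transcription factor ATF4 rises, and ATF4 is known to induce many cytosolic synthetase genes.

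Values are log2 expression, and differences are caerulein minus NaCl group means on that scale, with the standard error (SE) of a limma fit over all 35556 probe sets. A gene is called higher or lower where the adjusted p of that fit is under 0.05. Over all genes the median difference was -0.13, and 54.6% of genes were called, 20.3% higher and 34.3% lower. For 16.7% of genes all caerulein arrays lay above all NaCl arrays, and for 20.6% below. The groups separated on the first principal component, which held 62.8% of the variance. On the second component (6.56%) caerulein replicates 1 to 3 lay on one side and replicates 4 to 6 on the other, for which the labels name no reason.

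Of the 92 members, 44 were higher in caerulein pancreas (47.8%, against 20.3% of all genes) and 18 lower (19.6%, against 34.3%). The other 30 did not pass. The groups did not overlap for 41 members upward and 11 downward, where 16.7% and 20.6% of all genes did not. At least a 2-fold difference was reached by 20 members upward, against 6.14% of all genes, and by none downward, against 1.44%. The median over the members was 0.20. Without caerulein replicates 1 to 3 the counts were 42 higher and 14 lower, and without replicates 4 to 6 they were 42 and 12. In whole tissue, fewer cells of a type and less RNA per cell cannot be told apart.

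Of the 18 cytosolic synthetase genes, 14 rose and 1 fell (77.8% and 5.56%, beside 20.3% and 34.3% of all genes), and the median difference was 0.57. Another scaling shifted every array to an equal mean of a list of reference genes. As deposited that mean was itself 9.47 to 9.71 in caerulein pancreas and 8.65 to 8.89 in NaCl pancreas. Of the 11 reference genes measured 7 were higher and 4 did not pass (median difference 0.40), led by Actb (2.93), Ywhaz (1.88) and Pgk1 (1.65). Under this scaling 6 cytosolic synthetase genes were higher and 10 lower and their median was -0.24. The median of all genes was then -0.95, with 1084 of 19938 genes higher and 17497 lower. The group lay 0.71 above it as deposited, under this scaling and with an equal 75th percentile. A shift of whole arrays cannot alter that distance. After a second quantile normalisation the group lay 0.34 above, and after cyclic loess 0.42. The groups were separate, with caerulein above, in 13 of the 18 genes, beside 16.7% of all genes.

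Rars, the arginyl-tRNA synthetase, changed most. Its values were 9.73, 9.97, 9.80, 10.27, 10.36 and 10.32 in caerulein pancreas, against 8.27, 8.18, 7.95, 8.0 and 8.07 in NaCl pancreas. The lowest caerulein array stood well clear of the highest NaCl array, and the rise was 3.94-fold (log2 difference 1.98, SE 0.12, limma adjusted p = 6.0e-08). Gars, the glycyl-tRNA synthetase that serves both cytosol and mitochondria from one gene, had 10.60, 10.71, 10.56, 10.78, 10.77 and 10.82 in caerulein pancreas, against 9.12, 8.98, 8.86, 9.02 and 8.79 in NaCl pancreas. The caerulein arrays lay close together and above all NaCl arrays, a 3.37-fold rise (1.75, SE 0.08, limma adjusted p = 2.6e-09).

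Cars, for cysteine, had 9.34, 9.25, 9.23, 9.14, 9.28 and 9.31 in caerulein pancreas, against 7.85, 7.66, 7.68, 7.67 and 7.44 in NaCl pancreas. The groups did not overlap and differed 3.03-fold (1.6, SE 0.07, limma adjusted p = 4.0e-09). Nars, for asparagine, had 11.06, 11.08, 11.04, 11.20, 11.29 and 11.35 in caerulein pancreas, against 10.02, 9.72, 9.67, 9.69 and 9.64 in NaCl pancreas. NaCl replicate 1 was the highest of its group and still lay below every caerulein array, with a 2.68-fold rise (1.42, SE 0.09). Next came Iars at 1.23, whose second probe set gave 1.27, Yars at 0.99, Tars at 0.95 and Sars at 0.81.

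Smaller rises were measured for Qars (0.58), Lars (0.57), Farsb (0.54), Eprs (0.47), Vars (0.39) and Farsa (0.36). Farsa and Farsb encode the subunits of the phenylalanine enzyme, and Eprs a single protein that loads both glutamate and proline. Of these, Eprs alone had overlapping groups, with 8.03 to 8.88 in caerulein pancreas and 7.82 to 8.07 in NaCl pancreas. Kars (0.18), Hars (0.17) and Mars1 (0.08) did not pass.

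Wars, the tryptophanyl-tRNA synthetase, was the one gene of the set called lower. It had 8.75, 8.90, 8.92, 9.22, 9.12 and 9.47 in caerulein pancreas, against 9.31, 9.53, 9.30, 9.40 and 9.31 in NaCl pancreas. Caerulein replicate 6 overlapped the NaCl arrays, and replicates 1 to 3 were the lowest. Its difference was -0.31 (SE 0.11, limma adjusted p = 0.0452), and -0.10 (adjusted p = 0.441) without caerulein replicates 1 to 3. The call was also lost without any 1 of 9 arrays, all but caerulein replicates 4 and 6.

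**Figure D1:**
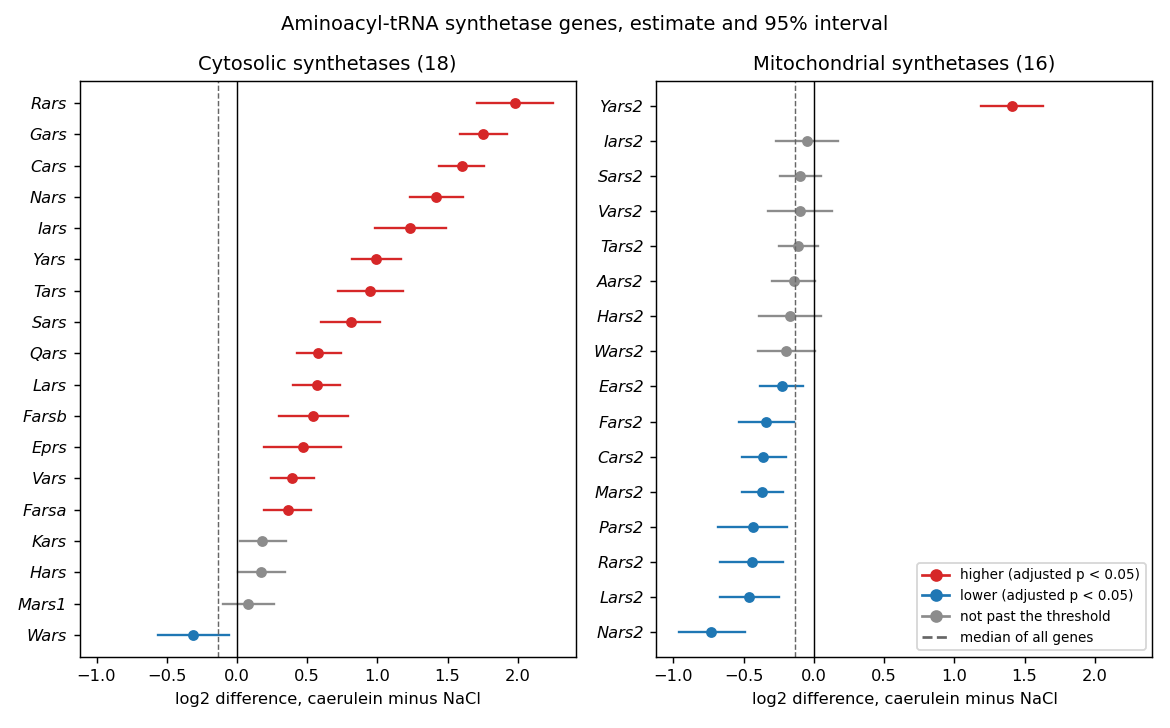
Log2 difference, caerulein minus NaCl, of each synthetase gene (horizontal axis; points are estimates, bars 95% intervals of the fit), cytosolic genes on the left and mitochondrial genes on the right. Of the cytosolic genes 14 were higher and 1 lower, and of the mitochondrial genes 1 was higher and 8 lower, with Yars2 apart from the rest.

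Mitochondrial synthetase genes were called lower in 8 of 16 cases and higher in 1, with a median of -0.21. That median lay 0.08 below the median of all genes, and the share called lower (50.0%) stood beside 34.3% of all genes. Their differences were small: leaving out Yars2, they ran from -0.73 to -0.05. After cyclic loess normalisation 5 were lower (31.2%), with a median of -0.12, and 3636 of all 19938 genes were then lower. With an equal mean of the reference genes 15 were lower (93.8%), and so were 17497 of all 19938 genes.

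Nars2, for asparagine, fell most. It had 5.39, 5.04, 5.07, 5.41, 5.27 and 5.63 in caerulein pancreas, against 6.00, 6.00, 6.25, 5.90 and 5.98 in NaCl pancreas. The groups did not overlap, and the difference was -0.73 (SE 0.11, limma adjusted p = 0.000157). Lars2, for leucine, had 5.70, 5.69, 5.58, 5.52, 5.22 and 5.35 in caerulein pancreas, against 6.04, 5.96, 5.77, 6.02 and 6.04 in NaCl pancreas. The highest caerulein array lay just under the lowest NaCl array, with a difference of -0.46 (SE 0.10). Rars2 (-0.44), Pars2 (-0.43), Mars2 (-0.37), Cars2 (-0.36), Fars2 (-0.34) and Ears2 (-0.23) were also called lower, and the groups overlapped for Rars2, Fars2 and Ears2. Wars2, Hars2, Aars2, Tars2, Vars2, Sars2 and Iars2 did not pass, with differences between -0.20 and -0.05.

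Yars2, the mitochondrial tyrosyl-tRNA synthetase, went the other way. It had 7.15, 7.04, 7.32, 6.82, 7.24 and 7.12 in caerulein pancreas, against 5.88, 5.73, 5.44, 5.81 and 5.66 in NaCl pancreas. All caerulein arrays lay above all NaCl arrays, a 2.65-fold rise (1.41, SE 0.10, limma adjusted p = 2.0e-07). It was called higher under every alternative run.

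For 12 amino acids with a cytosolic gene of their own, both that gene and the mitochondrial gene were measured. The within-array difference between them was added to the fit as a test of the contrast between the members of a pair. Phenylalanine, glutamate and proline were left out, as Farsa and Farsb serve together and Eprs serves the other amino acids. Farsa (0.36), Farsb (0.54) and Eprs (0.47) were higher, and Fars2 (-0.34), Ears2 (-0.23) and Pars2 (-0.43) lower. The test was chosen after the values had been seen. The cytosolic gene changed upward relative to its mitochondrial partner in 10 pairs, and downward in 1. Of all single genes 54.6% were called, and how often pairs of other genes would pass was not measured. These counts therefore have no background share beside them. The widest gaps were those of Rars and Rars2 (2.42, SE 0.13, limma adjusted p = 1.1e-08), Nars and Nars2 (2.15, SE 0.11) and Cars and Cars2 (1.95, SE 0.09). For Yars and Yars2 the gap was -0.41 (SE 0.09, limma adjusted p = 0.00302). Wars and Wars2 did not differ beyond the threshold (-0.11, 95% interval -0.36 to 0.13), and the Hars pair barely did (0.35, limma adjusted p = 0.0475). A shift of whole arrays cannot alter these gaps, but a second quantile normalisation left 7 pairs upward and 2 downward, and cyclic loess 8 and 2.

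**Figure D2:**
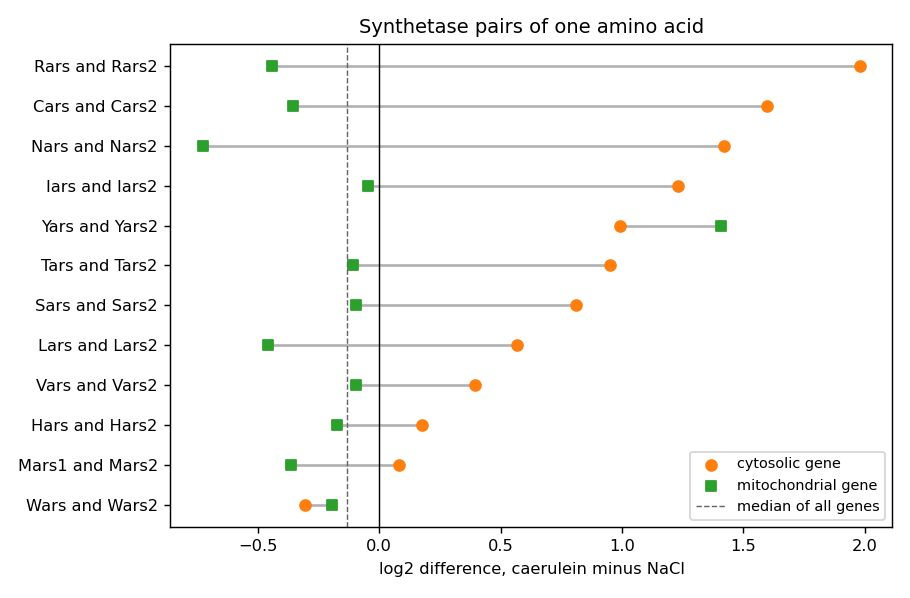
Log2 difference, caerulein minus NaCl, of the cytosolic (circle) and mitochondrial (square) synthetase gene of the same amino acid, 1 row a pair. The cytosolic gene lies to the right in 10 of 12 pairs, and to the left for Yars and Yars2 and for Wars and Wars2.

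The members' RefSeq promoter windows (assembly GRCm38.p6, 250 bases before to 50 after an annotated start) were searched for the core of the amino acid response element, the kind of site to which ATF4 binds with partner proteins. The letters searched were TGATGNAA on both strands. Windows were matched for 70 of the 92 members. The letters occurred in 4 of 11 cytosolic synthetase genes with a window (36.4%), namely Gars, Iars, Tars and Yars, in 0 of 14 mitochondrial ones, and in 3.62% of measured genes with a window. The 4 genes had differences of 1.75, 1.23, 0.95 and 0.99. Cytosolic genes searched without a match ran from 0.08 (Mars1) to 0.81 (Sars). The remaining cytosolic genes had no matched window, among them Rars (1.98), Cars (1.6) and Nars (1.42). A link between the letters and the differences was not tested. Elsewhere among the members they occurred in Eif2s3x (difference -0.05, not past the threshold) and in 1 window of Eef2k. A match is a description of the letters and not evidence of binding. The stretches are shown with the matched letters in capitals, at chr6:55037851-55038000, plus strand, chr15:11399659-11399808, minus strand, chr13:49682123-49682152, plus strand and chr4:129189892-129189921, plus strand. The Gars and Tars matches lie upstream of the start, whereas the Iars and Yars matches begin 8 and 4 bases into the transcript.
Gars: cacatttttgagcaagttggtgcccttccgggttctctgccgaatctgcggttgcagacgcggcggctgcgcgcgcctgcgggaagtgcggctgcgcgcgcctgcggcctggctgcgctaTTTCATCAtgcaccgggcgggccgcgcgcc
Tars: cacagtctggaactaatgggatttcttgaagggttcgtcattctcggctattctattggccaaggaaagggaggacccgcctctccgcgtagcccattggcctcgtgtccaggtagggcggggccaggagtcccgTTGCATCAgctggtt
Iars: tggcactgtcagtaTTGCATCAcctccaga
Yars: gcgacgagctcagcTGATGCAAcccgacgg

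The match in Gars begins 30 bases before the start and that in Tars 15 bases before it, and in Gars, Tars and Iars it reads on the reverse strand. Of the list of ATF4 and those of its known targets that are no synthetases, 14 of 16 were higher in caerulein pancreas, beside 20.3% of all genes. The other 2, Ddit3 (0.10) and Vldlr (0.06), did not pass, and the median of the list was 1.55. The leading genes were the stress factor Atf3 (4.19, SE 0.16) and Ddit4, an inhibitor of mTORC1 (2.64, SE 0.18).

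Among the factors that act at the start codon and in subunit joining, 8 of 9 rose (88.9%, beside 20.3% of all genes). The median was 0.46 (-0.36 with an equal mean of the reference genes, where all genes had -0.95). After a second quantile normalisation 5 of the 9 were higher, with a median of 0.28, beside 3844 of all 19938 genes higher. Eif1a, which helps the small subunit scan for the start codon, had 8.55, 8.72, 8.62, 8.70, 8.55 and 8.75 in caerulein pancreas, against 7.03, 6.64, 6.69, 6.67 and 6.74 in NaCl pancreas. The groups were widely separate, a 3.72-fold rise (1.90, SE 0.08, limma adjusted p = 1.8e-09). The near-identical X-linked gene Eif1ax differed by only 0.21 (SE 0.08, limma adjusted p = 0.0478), with 8.23 to 8.54 in caerulein pancreas and 8.01 to 8.35 in NaCl pancreas, and by -0.10 after a second quantile normalisation. Its call was lost without any 1 of 8 arrays. Close copies of Eif1a exist, and the probes may not tell them apart.

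Eif6, which holds the large subunit apart until it is mature, had 9.62, 9.56, 9.66, 9.60, 9.76 and 9.61 in caerulein pancreas, against 8.20, 8.20, 8.07, 7.83 and 8.16 in NaCl pancreas. It was 2.91-fold higher without overlap (1.54, SE 0.08, limma adjusted p = 7.1e-09). Eif5, the factor that triggers GTP hydrolysis by eIF2, had 10.45 to 10.63 in caerulein pancreas and 9.05 to 9.30 in NaCl pancreas, a 2.59-fold rise (1.37, SE 0.07). Eif5b, the GTPase of subunit joining, was higher by 0.60 and Eif1b by 0.46.

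Eif5a, whose protein carries the modified amino acid hypusine, was higher by 0.38 (SE 0.08, limma adjusted p = 0.00173) in its brighter probe set. Its second probe set gave 0.15 (adjusted p = 0.0692), and after a second quantile normalisation the brighter one gave 0.08. The paralogue Eif5a2 had -0.18 and did not pass. Of the pair of enzymes that make hypusine, Dhps was higher by 0.53 (SE 0.08) and Dohh, at 0.08, did not pass.

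Of the 10 genes of eIF2, its exchange factor eIF2B and initiator tRNA delivery, 3 rose and 3 fell (beside 20.3% of all genes higher and 34.3% lower), and the median was 0.11. Within eIF2B, the gamma subunit gene Eif2b3 had 7.80, 7.98, 7.76, 8.06, 8.18 and 7.91 in caerulein pancreas, against 6.55, 6.47, 6.45, 6.44 and 6.53 in NaCl pancreas. That was a 2.76-fold rise without overlap (1.46, SE 0.08, limma adjusted p = 1.5e-08). Eif2b5, the catalytic epsilon subunit, was higher by 0.82 (SE 0.09). The alpha subunit gene Eif2b1, whose product senses phosphorylated eIF2, had 6.70, 6.64, 6.76, 6.75, 6.78 and 6.89 in caerulein pancreas, against 7.37, 7.37, 7.27, 7.31 and 7.43 in NaCl pancreas. Every caerulein array lay below every NaCl array, and the difference was -0.60 (SE 0.06, limma adjusted p = 5.7e-06). Eif2b4 was also lower (-0.26, SE 0.09), and Eif2b2 did not pass (0.09).

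Of the eIF2 subunits themselves, Eif2s2, the beta subunit, was 2.45-fold higher in its brighter probe set (1.29, SE 0.11, limma adjusted p = 1.1e-06), with 8.91 to 9.35 in caerulein pancreas and 7.47 to 8.0 in NaCl pancreas. Its other probe set was lower (-0.37, SE 0.11, limma adjusted p = 0.0127), so the direction for this gene rests on the probe set. The X-linked gamma subunit gene Eif2s3x did not pass (-0.05, 95% interval -0.27 to 0.16). The Y-linked Eif2s3y had 2.85 to 2.98 in caerulein pancreas and 3.00 to 3.12 in NaCl pancreas (-0.18, SE 0.05), and the call ended after cyclic loess (adjusted p = 0.102). The medians of the arrays were 5.2 to 5.4, so this probe set was among the dimmest, and whether it stood above background was not tested. Without the dimmest 50 percent of probe sets it dropped out, leaving 2 of 9 genes lower. Eif2a and Eif2d, which can deliver initiator tRNA by other routes, did not pass (0.13 and 0.16).

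Of 7 eIF2 kinase and phosphatase genes, 5 rose and 1 fell (median 0.44), beside 20.3% of all genes higher and 34.3% lower. The phosphatase subunit gene Ppp1r15a, which reverses eIF2 phosphorylation, was higher by 0.67 (SE 0.08), and the kinase gene Eif2ak2 by 0.64 (SE 0.11).

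In eIF3, 6 of 11 subunit genes rose and 1 fell (54.5% and 9.09%, beside 20.3% and 34.3% of all genes). The median was 0.53 (-0.29 with an equal mean of the reference genes). Eif3c had 9.63, 9.79, 9.62, 9.89, 9.96 and 9.99 in caerulein pancreas, against 8.46, 8.57, 8.28, 8.54 and 8.21 in NaCl pancreas. Eif3b had 10.20, 10.12, 10.28, 10.12, 10.27 and 10.26 in caerulein pancreas, against 9.22, 8.76, 8.81, 8.76 and 8.86 in NaCl pancreas. Neither gene's groups overlapped, and the rises were 2.64-fold (1.40, SE 0.10) and 2.51-fold (1.33, SE 0.09). Eif3a, the largest scaffold subunit of the core, was 2.04-fold higher (1.03, SE 0.07), with 10.57 to 10.75 in caerulein pancreas and 9.53 to 9.80 in NaCl pancreas. Eif3d, a subunit that can bind the cap of some mRNAs, was 2.00-fold higher (1.00, SE 0.10).

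Eif3l (0.58) and Eif3e (0.53) rose less, again without overlap. Eif3m, Eif3f, Eif3i and Eif3h did not pass, with differences from -0.17 to 0.11, and both probe sets of Eif3m gave nearly the same value (0.11 and 0.10). Eif3k, a peripheral subunit, was lower (-0.30, SE 0.10, limma adjusted p = 0.0245), with 7.74 to 8.17 in caerulein pancreas and 7.95 to 8.34 in NaCl pancreas. This call was lost without caerulein replicates 4 to 6 (-0.16, adjusted p = 0.294), and without any 1 of 5 arrays. After a second quantile normalisation 5 of the 11 subunit genes were lower and 6 higher, beside 4671 lower and 3844 higher of all 19938 genes.

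**Figure D3:**
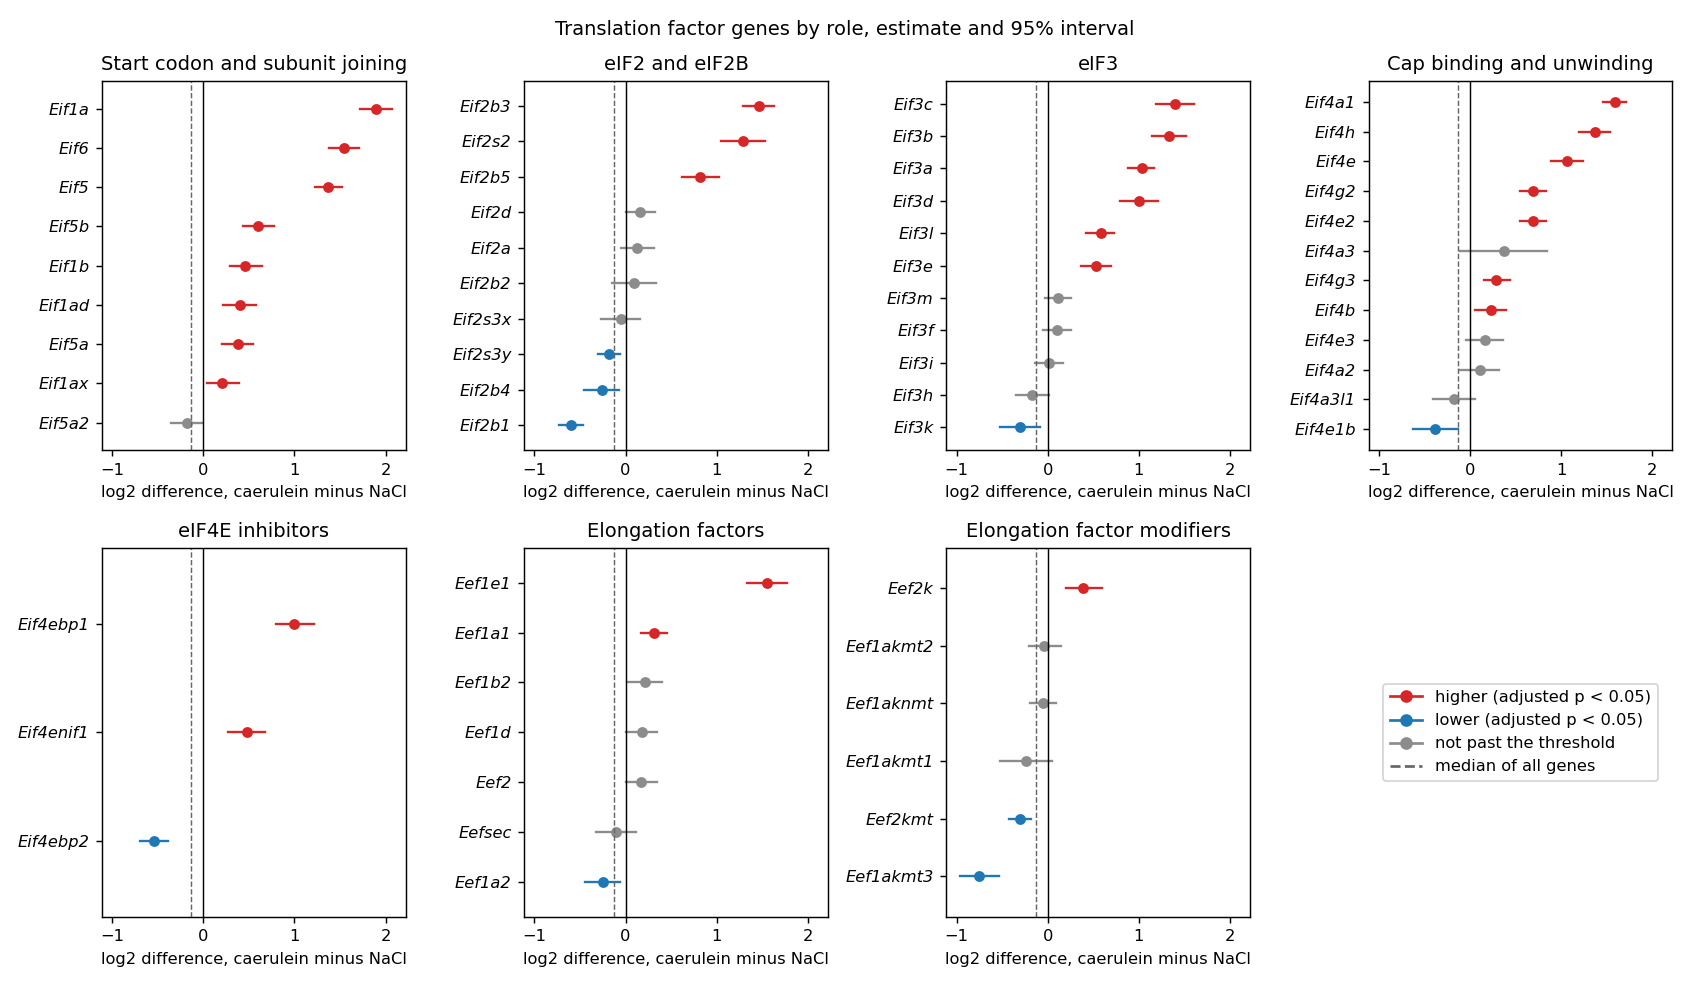
Log2 difference, caerulein minus NaCl, of the 58 translation factor genes by role (points are estimates, bars 95% intervals of the fit; the dashed line is the median of all genes, -0.13). Genes of the start codon, eIF3 and cap groups lie mostly to the right, while eIF2B genes lie on both sides.

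Among 12 genes for cap binding and mRNA unwinding, 7 rose and 1 fell (58.3% and 8.33%, beside 20.3% and 34.3% of all genes). The median was 0.33 (-0.49 with an equal mean of the reference genes). Eif4a1, the helicase of the cap complex, had 11.45, 11.47, 11.51, 11.57, 11.48 and 11.59 in caerulein pancreas, against 10.04, 9.83, 9.92, 9.87 and 9.97 in NaCl pancreas. The spread within each group was small beside the gap, a 3.00-fold rise (1.59, SE 0.06, limma adjusted p = 7.0e-10), and the other probe sets of the gene gave 1.58 and 1.52. Its close relative Eif4a2 did not pass (0.11, 95% interval -0.11 to 0.32). Eif4a3, the helicase of the exon junction complex, did not pass either (0.37, SE 0.22), and its NaCl arrays ran from 6.17 to 7.59.

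Eif4h, a cofactor of the helicase, had 9.68, 9.62, 9.71, 9.55, 9.58 and 9.67 in caerulein pancreas, against 8.51, 8.24, 8.09, 8.30 and 8.17 in NaCl pancreas. It rose 2.59-fold without overlap (1.37, SE 0.08, limma adjusted p = 2.2e-08). Eif4e, the cap-binding protein, had 8.28 to 8.53 in caerulein pancreas and 7.22 to 7.56 in NaCl pancreas in its brightest probe set (1.06, SE 0.08, limma adjusted p = 3.2e-07). Its other probe sets gave -0.29 (adjusted p = 0.0409) and 0.16 (adjusted p = 0.225), so the rise was measured by 1 of 3 probe sets, and the mean of all of them gave 0.31.

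Eif4e2, a cap-binding relative that represses translation, and Eif4g2, a scaffold that lacks the eIF4E site, were both 1.62-fold higher (0.69, SE 0.07 each). Eif4g3 (0.29) and Eif4b (0.23) rose slightly, and Eif4e3 (0.16) and Eif4a3l1 (-0.18) did not pass. Eif4e1b, known as a germ cell relative of eIF4E, was lower (-0.38, SE 0.11, limma adjusted p = 0.0165). Its second probe set gave -0.29 (adjusted p = 0.0792), and the call was lost with a repeated quantile step (adjusted p = 0.0814) or cyclic loess (adjusted p = 0.139).

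The same promoter windows were searched for the E-box CACGTG, the site of MYC and related factors, which reads alike on both strands. It occurred in 16 of 70 members with a window (22.9%), against 9.50% of measured genes, and in 3 of 9 cap and unwinding genes, namely Eif4a1, Eif4e and Eif4h. It also occurred in 3 of 7 start codon genes, 3 of 8 eIF3 genes, 3 of 11 cytosolic synthetase genes, 2 of 4 modifier genes, 1 of 6 elongation factor genes and 1 of 14 mitochondrial synthetase genes. Eif3a (1.03) held the letters, as did Eif3f (0.10, not past the threshold), Eif3k (-0.30, called lower) and Eif5a2 (-0.18, not past). Of the 16 members with the letters 10 were called higher and 2 lower, and of the 54 without them 23 and 12. Over all genes 20.3% were higher and 34.3% lower. Calls of other genes with the letters were not counted, and a link between letters and calls was not tested. The bases upstream of the start are shown for the 3 cap genes, picked after their values were seen, with the E-boxes in capitals, at chr3:138527018-138527267, plus strand, chr5:134639410-134639559, minus strand and chr11:69672424-69672673, minus strand.
Eif4e: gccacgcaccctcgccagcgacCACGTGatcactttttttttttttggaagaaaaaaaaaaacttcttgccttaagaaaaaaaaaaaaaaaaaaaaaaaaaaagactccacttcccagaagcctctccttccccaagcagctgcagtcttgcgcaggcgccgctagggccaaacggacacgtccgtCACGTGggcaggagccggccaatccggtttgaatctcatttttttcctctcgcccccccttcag
Eif4h: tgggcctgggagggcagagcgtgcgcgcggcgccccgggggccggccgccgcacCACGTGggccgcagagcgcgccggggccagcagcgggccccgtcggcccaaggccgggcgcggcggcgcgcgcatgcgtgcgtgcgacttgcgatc
Eif4a1: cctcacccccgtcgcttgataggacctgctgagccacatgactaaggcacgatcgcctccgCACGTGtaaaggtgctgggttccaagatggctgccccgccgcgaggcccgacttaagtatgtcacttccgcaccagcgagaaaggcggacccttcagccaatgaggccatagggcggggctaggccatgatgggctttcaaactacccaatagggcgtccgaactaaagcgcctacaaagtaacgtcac

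The inhibitors of eIF4E changed in opposite directions. Eif4ebp1, which blocks eIF4E until mTORC1 phosphorylates it, had 9.94, 10.03, 9.78, 9.78, 10.10 and 9.97 in caerulein pancreas, against 9.07, 9.15, 8.81, 8.94 and 8.69 in NaCl pancreas. It was 2.00-fold higher without overlap (1.00, SE 0.09, limma adjusted p = 2.7e-06). Its paralogue Eif4ebp2 had 7.91, 7.84, 7.75, 7.77, 7.65 and 7.62 in caerulein pancreas, against 8.31, 8.17, 8.27, 8.38 and 8.34 in NaCl pancreas. Every caerulein array was lower, with a difference of -0.54 (SE 0.07, limma adjusted p = 4.6e-05). Eif4enif1, which carries eIF4E to the nucleus and to RNA bodies, was higher by 0.48 (SE 0.10), but its second probe set gave -0.07 (adjusted p = 0.613).

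Counts in the next lists stand beside 20.3% of all genes higher and 34.3% lower. Of 12 measured genes of cap and mTORC1 control, 4 were higher and 6 lower. The largest differences were those of Pdcd4, an inhibitor of the helicase eIF4A (-2.06, SE 0.13, limma adjusted p = 8.5e-08), and Mknk1, a kinase of eIF4E (-2.03, SE 0.10, limma adjusted p = 4.6e-09). Among the poly(A)-binding group 3 of 4 were higher, led by Paip2 (0.89) and Pabpc1 (0.75). In termination, recycling and rescue 5 of 8 were higher and 2 lower, led by the release factor gene Etf1 (1.24, SE 0.07) and Hbs1l (0.74).

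Of the 7 elongation factor genes, 2 rose and 1 fell (28.6% and 14.3%, beside 20.3% and 34.3% of all genes), and the median was 0.18. Eef1e1 stood apart, with 8.12, 8.18, 8.14, 8.26, 8.24 and 8.17 in caerulein pancreas, against 7.03, 6.60, 6.70, 6.36 and 6.48 in NaCl pancreas. The groups were far apart, a 2.93-fold rise (1.55, SE 0.10, limma adjusted p = 8.8e-08). Despite its name this protein is known as a scaffold of the multisynthetase complex and not as a delivery factor. Of the other scaffold and synthetase-related genes, 1 of 6 was higher and 4 lower (beside 20.3% and 34.3% of all genes). The scaffold gene Aimp2 was higher by 0.72 (SE 0.14) and Aimp1 did not pass (-0.09).

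Eef1a1, which delivers tRNA to the ribosome, was higher by 0.31 (SE 0.06, limma adjusted p = 0.00184), with means of 13.92 ± 0.06 in caerulein pancreas and 13.61 ± 0.11 in NaCl pancreas (SD, n = 6 and n = 5) and no overlap. Eef1a2, the muscle and nerve form, was lower (-0.25, SE 0.09, limma adjusted p = 0.0365), and the call was lost without any 1 of 7 arrays. Eef1b2 (0.21), Eef1d (0.18), Eef2 (0.17) and the selenocysteine factor Eefsec (-0.10) did not pass, and the 95% interval of Eef2, the translocase, was 0.00 to 0.34.

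Of the genes that modify elongation factors, 2 of 6 were lower and 1 higher (33.3% and 16.7%, near the 34.3% and 20.3% of all genes), with a median of -0.14. Eef1akmt3, a lysine methyltransferase of eEF1A, had 5.22, 5.21, 5.26, 5.30, 5.6 and 5.12 in caerulein pancreas, against 6.31, 6.00, 5.91, 6.03 and 5.93 in NaCl pancreas. The groups did not overlap (-0.75, SE 0.10, limma adjusted p = 4.5e-05). Eef2kmt, a methyltransferase of eEF2, was lower by less (-0.30, SE 0.06). Eef2k, the kinase that inactivates eEF2, was higher in its brighter probe set (0.39, SE 0.09) and lower in the other (-0.64, SE 0.07, limma adjusted p = 7.2e-06). Eef1akmt1, Eef1akmt2 and Eef1aknmt did not pass.

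The mitochondrial translation factors, a list apart from the members, had 1 of 14 genes higher and 4 lower (median -0.10). Over all genes 20.3% were higher and 34.3% lower, and the median was -0.13. Gfm2, a ribosome recycling factor, was the lowest of the list (-0.58, SE 0.09), followed by Mtrf1 (-0.46).

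**Figure D4:**
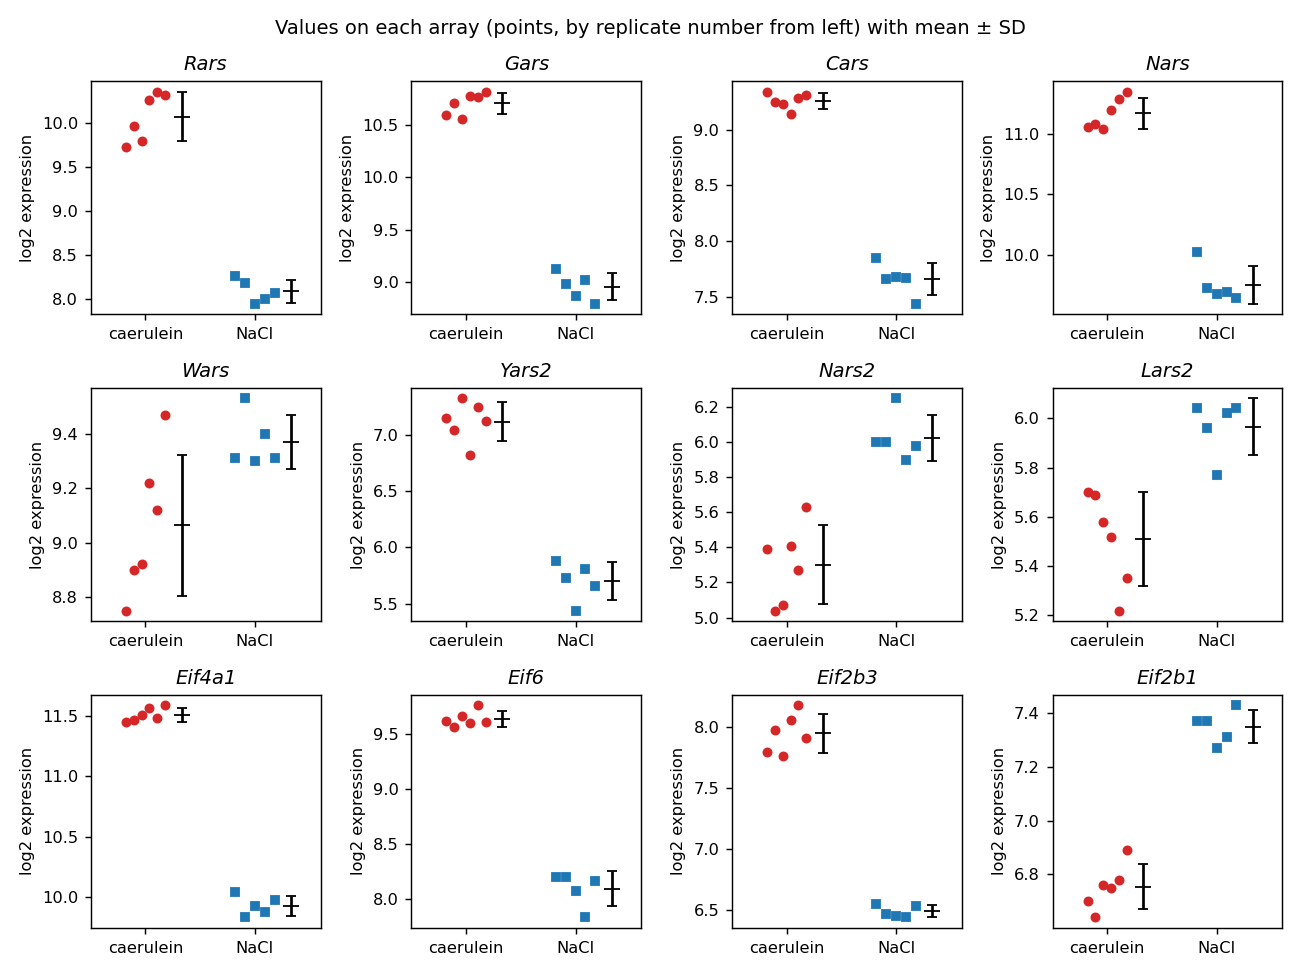
Log2 expression on every array for 12 members, caerulein (circles, n = 6) left of NaCl (squares, n = 5), with the mean and SD beside the points. In all panels but that of Wars the groups do not overlap.

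**Figure D5:**
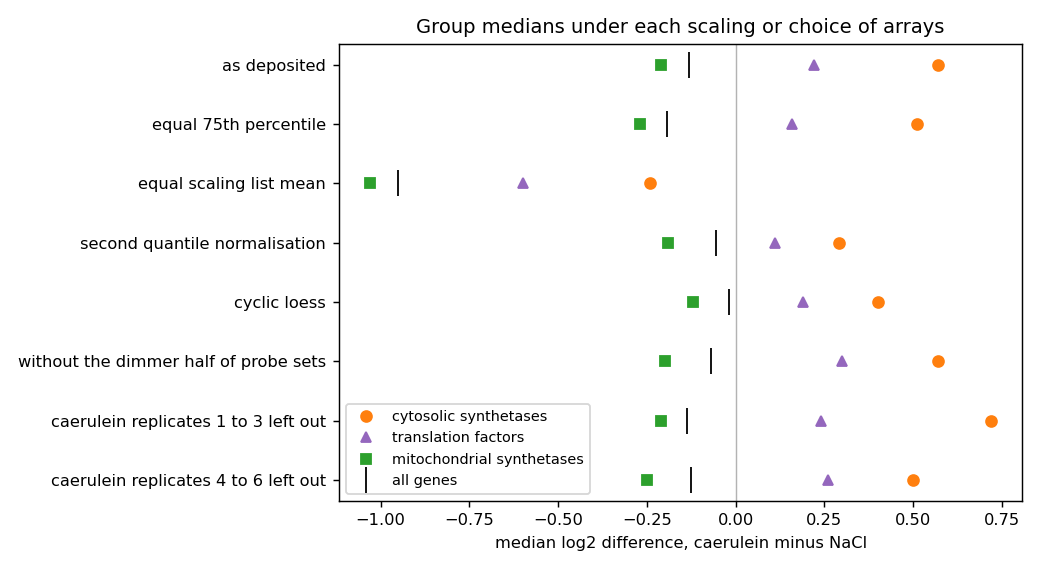
Median log2 difference, caerulein minus NaCl, of the cytosolic synthetases, translation factors, mitochondrial synthetases and all genes (horizontal axis) as deposited and under 7 other choices (rows). The cytosolic synthetases lie furthest right in every row, and with an equal mean of the reference genes all medians are below 0.

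Markers of acinar and other cell types were read on the same arrays, and their counts stand beside 20.3% of all genes higher and 34.3% lower. Of 14 acinar markers 6 fell and 1 rose, and the median difference was -0.12, beside -0.13 over all genes. For 11 of the 14 all caerulein arrays lay below all NaCl arrays, against 20.6% of all genes. The mean log2 level over the list was 11.36 to 11.47 in caerulein pancreas and 12.05 to 12.24 in NaCl pancreas. The lowest were Cckar, the receptor that caerulein acts on (-4.05, SE 0.11), Bhlha15 (-2.0), Rbpjl (-1.43) and Ctrc (-1.39). The acinar marker that rose was Ptf1a (0.55, SE 0.15). The enzyme genes Cpa1 (-0.04), Cel (-0.07) and Prss2 (-0.10) did not pass, although Cel and Prss2 were lower on every caerulein array. These enzyme genes read 14.06 to 14.69, close to the highest values on the arrays (14.96 to 15.05). Of 8 duct markers 5 were higher and 2 lower (8.36 to 8.66 in caerulein pancreas and 6.77 to 6.98 in NaCl pancreas). The lower ones were Muc1 (-1.14) and Onecut1 (-0.66). Of 15 macrophage markers 9 were higher (6.21 to 7.04 in caerulein pancreas and 5.62 to 5.76 in NaCl pancreas). Of 13 neutrophil markers 1 was higher and 3 lower (4.56 to 5.10 in caerulein pancreas and 4.73 to 4.82 in NaCl pancreas). Of 6 endothelial markers 2 were higher and 1 lower, of 9 stellate and fibroblast markers 3 were higher and 1 lower, of 7 T and B cell markers 4 were lower, and of 6 islet markers 1 was lower. The part of these cell types in the differences of the members was not tested.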

How the data were processed

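The deposited table holds log2 expression values for 35556 probe sets on 11 arrays. Per the submitters' processing notes, the authors worked with RMA, oligo and limma; the sources used here give no versions or detection calls. RMA corrects background, quantile-normalises the arrays and summarises probes to 1 log2 value per probe set, which can shrink differences of very dim or bright ones. Levels of different probe sets were compared only to pick the brightest of a gene and to drop the dimmest; that pick decides the direction for Eif2s2, Eef2k and Eif4e. Precision is limited by how many arrays there are.

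The annotation gave 1 gene symbol for 21789 probe sets, several for 1621 and none for 12146. All 92 members matched a RefSeq gene by Entrez identifier and 9 had more than 1 probe set. The caerulein arrays were set against the NaCl arrays with lmFit and eBayes of limma 3.58.1 (R 4.3.3; no covariates, two-sided), with Benjamini-Hochberg adjustment over all probe sets and a threshold of 0.05. The fit was tested on simulated data. Members, roles and lists were chosen with earlier results of these data known, so no list was tested as a set and nothing was adjusted over a list alone. Values on the arrays were given for the 4 called members of each role with the largest difference, the largest against the majority, and named paralogues. Alternatives were other variance models, array weights, 4 rescalings, the replicate number as a block, dropping the dimmest 50 percent of probe sets, the mean of a gene's probe sets, and leaving out arrays. Some members of the gene families are not analysed here.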

Additional observations from a re-analysis of the deposited data

Results flagged for a closer look

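For 10 of the 92 sets of values tested (46 members in 2 groups), the highest or lowest array lay far from the rest of its group, where chance would give about 1 in 20. NaCl replicate 1 was the highest of its group for Eif4e (7.56, next 7.30), Nars (10.02, next 9.72), Eif3b (9.22, next 8.86) and Eif1a (7.03, next 6.74), in each case toward the caerulein values. NaCl replicate 3 was the highest for Nars2 (6.25) and the lowest for Lars2 (5.77) and Rars2 (5.61). NaCl replicate 2 was the lowest for Eif2s3y (3.00), caerulein replicate 5 the highest for Eef1akmt3 (5.6), and caerulein replicate 2 the lowest for Eif2s3x (8.63). The calls of these 10 genes were the same without any 1 array.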

How the results depend on the processing

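The number of members higher was 44 as deposited and stayed within 1.5 times of that, from 37 to 45, under every alternative but an equal mean of the reference genes. That scaling list had 11 of 15 genes measured, 7 of them higher, and moved the median of all genes to -0.95. Under it the counts were 19 members higher and 66 lower, 6 cytosolic synthetases higher and 10 lower, 15 mitochondrial synthetases lower, and 1477 probe sets higher and 31381 lower. It turned the sign of Eif4g2 (-0.13), Eif4enif1 (-0.34), Eef2k (-0.43), Eef1a1 (-0.51), Eif5b (-0.22), Eif1ax (-0.61), Eif1b (-0.36), Eif4a2 (-0.71), Eif4e2 (-0.13), Eif4e3 (-0.66), Eif4g3 (-0.52) and Eif5a (-0.44). The sign of Eif1ax also turned after a second quantile normalisation (-0.10) and that of Eef2k with the mean of all its probe sets (-0.12).

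The single cytosolic synthetase called lower, Wars, made a count of 0 with array weights (adjusted p = 0.0766) and without caerulein replicates 1 to 3, of 2 after a second quantile normalisation, and of 0 to 1 when single arrays were left out, 9 of the 11 removals giving 0 in limma. Cyclic loess gave 5 mitochondrial synthetases lower and 5467 probe sets lower. Probe sets lower numbered 6446 with the dimmest 50 percent of probe sets dropped and 6230 without caerulein replicates 4 to 6, against 9884. Downward pairs numbered 2, not 1, both with cyclic loess and with the repeated quantile step. The causes were not tested, except that fewer arrays or probe sets entered where some were left out.

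With the replicate number as a block, 42 members were higher and 14 lower. The labels do not say whether equal numbers pair the samples. Correlations of deviations between equal numbers were weak (-0.052 to 0.060), but 4 of 5 caerulein arrays correlated best with their own number. Whether the samples are paired was not tested. With single arrays left out, 42 to 45 members were higher and 15 to 17 lower.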

Other observations

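Within the caerulein group, 10 of 18 cytosolic synthetase genes (55.6%) had replicates 4 to 6 all above replicates 1 to 3, against 9.40% of all genes, 12.1% of the translation factors and 6.25% of the mitochondrial synthetases. The genes were Eprs, Farsb, Gars, Iars, Lars, Mars1, Nars, Rars, Tars and Wars. The mean log2 level over the 18 genes was 8.71 to 8.79 in caerulein replicates 1 to 3 and 8.87 to 9.01 in replicates 4 to 6, against 7.97 to 8.21 in NaCl pancreas. The labels name no difference between these replicates, the comparison was made after the values had been seen, and it was not tested.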
